A study of Mus musculus with 12 samples.

Results

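The 9 genes described here encode transcription factors of squamous epithelium, the stratified, flattened cell layers that cover the tongue. They are Trp63, Sox2, Pax9, Pitx1, Klf5, Klf4, Grhl3, Ovol1 and Gata3. They were picked by symbol from the 23235 gene rows of the deposited tables, and each symbol matched a row. Poly-A RNA from tongues of C57BL/6 mice aged 31 weeks was sequenced. The 12 samples make up 4 groups of 3: 4-NQO with ethanol (4-NQO/EtOH), 4-NQO marked untr. in place of ethanol (4-NQO/Untr.), V.C. with ethanol (V.C./EtOH), and V.C. marked untr. (V.C./Untr.). The labels do not spell out V.C. The compound 4-NQO (4-nitroquinoline 1-oxide) damages DNA through bulky adducts and is widely given to mice to induce lesions of the oral mucosa. Whether a sample is 1 animal is not stated.

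The tables know the groups only as numbers from 1 to 4, and neither labels nor headers tie a number to a treatment. All comparisons are therefore between numbered groups, with no treatment named. Each gene has 1 value per group in FPKM, fragments scaled to transcript length and to the size of the library, with the authors' own statistic for each of the 6 pairs of groups. Values per sample were not analysed here, and the depth is unknown. The standard error (SE) of a level was worked out from the authors' statistics.

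Stratified epithelium renews from a basal layer of dividing cells, whose daughters move up, stop dividing and build a cross-linked, water-tight surface. The p63 protein, product of Trp63, holds the basal identity of such epithelia, and SOX2 is known from the progenitors of the tongue surface and its taste buds. KLF5 is linked to dividing basal cells, while KLF4, GRHL3 and OVOL1 are linked to exit from division and to the barrier. PAX9 and PITX1 are developmental regulators of the mouth, and in mice PAX9 is needed for the filiform papillae of the tongue. GATA3 takes part in the skin barrier and hair follicle, and is also a defining factor of T cells.

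On the mm9 build, Trp63 lies on chromosome 16 (25683851 to 25892174), Sox2 on chromosome 3 (34459303 to 34576915), Pax9 on chromosome 12 (57796626 to 57812217) and Pitx1 on chromosome 13 (55926415 to 55932786). Klf5 lies on chromosome 14 (99697910 to 99712628), and Ovol1 on chromosome 19 (5549137 to 5560575). Klf4 (55540009 to 55545347) and Grhl3 (135097803 to 135129535) are both on chromosome 4, and Gata3 is on chromosome 2 (9778705 to 9800227). The interval given for Sox2 is that of its row and is shared with the non-coding gene Sox2ot, so it may not bound Sox2 itself. Sox2ot was listed at 0.218, 0.400, 0.324 and 0.406 FPKM in groups 4, 3, 2 and 1. How reads were assigned within the pair is not stated, so they may not be fully separable. The Trp63 row covers 8 RefSeq transcripts, so its long and short N-terminal forms are summed. The other 8 rows cover 1 transcript each.

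RefSeq promoter sequence (250 bases before to 50 bases after the start site) was at hand for 5 of the 9 genes: Grhl3, Klf4, Sox2, Pax9 and Gata3. The promoters of Grhl3 and Klf4, which passed the test described below, are shown beside those of Sox2 and Pax9, which did not. Each reads 5′ to 3′ on the strand of the gene. Capitals mark CACCC on either strand (GGGTG in reverse), the core of the box bound by Krüppel-like factors, and the GC box GGGCGG on either strand (CCGCCC in reverse).
Grhl3 (GRCm38.p6, chr4:135573583-135573882, minus strand): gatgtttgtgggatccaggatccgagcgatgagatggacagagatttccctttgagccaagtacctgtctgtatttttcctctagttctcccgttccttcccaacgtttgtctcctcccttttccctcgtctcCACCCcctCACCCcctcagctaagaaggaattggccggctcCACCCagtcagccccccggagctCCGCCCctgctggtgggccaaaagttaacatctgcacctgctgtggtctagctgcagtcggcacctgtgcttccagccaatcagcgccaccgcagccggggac
Klf4 (GRCm38.p6, chr4:55532426-55532725, minus strand): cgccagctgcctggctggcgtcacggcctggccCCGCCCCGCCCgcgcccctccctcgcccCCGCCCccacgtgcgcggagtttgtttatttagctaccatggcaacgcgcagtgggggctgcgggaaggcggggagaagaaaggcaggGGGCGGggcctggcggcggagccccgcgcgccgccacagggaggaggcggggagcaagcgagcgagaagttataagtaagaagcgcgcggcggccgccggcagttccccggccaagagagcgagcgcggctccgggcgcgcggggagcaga
Sox2 (GRCm38.p6, chr3:34649745-34650044, plus strand): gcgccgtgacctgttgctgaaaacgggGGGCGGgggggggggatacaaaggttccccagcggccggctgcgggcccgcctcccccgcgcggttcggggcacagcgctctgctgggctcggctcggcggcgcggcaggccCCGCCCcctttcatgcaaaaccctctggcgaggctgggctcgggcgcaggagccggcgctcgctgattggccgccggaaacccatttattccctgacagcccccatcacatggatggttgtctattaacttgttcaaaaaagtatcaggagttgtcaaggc
Pax9 (GRCm38.p6, chr12:56695221-56695520, plus strand): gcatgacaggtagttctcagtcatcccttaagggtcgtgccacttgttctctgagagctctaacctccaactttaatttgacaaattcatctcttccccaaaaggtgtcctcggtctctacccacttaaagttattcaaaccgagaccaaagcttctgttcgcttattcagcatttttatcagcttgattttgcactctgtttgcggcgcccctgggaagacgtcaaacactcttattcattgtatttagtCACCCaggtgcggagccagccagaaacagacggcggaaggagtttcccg

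The Grhl3 promoter held 3 CACCC boxes and 1 GC box, and that of Klf4 held 4 GC boxes, of which a neighbouring pair overlaps, and no CACCC. The Sox2 promoter held 2 GC boxes. The Pax9 promoter held 1 CACCC box, just after the start site. In Gata3, not shown, there were 3 CACCC boxes and 2 GC boxes. CACCC occurs in 57.5% and GGGCGG in 35.7% of the 32851 RefSeq promoters of this length, so neither is rare. Of the other letters searched on both strands, the SOX core ACAAAG (18.7% of promoters) occurred in Sox2 alone among these 5, and TATAAA (13.6%), the Grainyhead core AACCGG (6.83%) and the GATA core AGATAA (11.2%) occurred in none. No match overlapped a match of another motif. The GC share of the promoter was 58.3% for Grhl3, 74.3% for Klf4, 66.3% for Sox2, 47% for Pax9 and 67.3% for Gata3. These matches describe the letters only. They do not separate the genes that passed the test from those that did not.

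Markers of the labelled tissue were present. Between 12579 and 12738 genes reached 1 FPKM in each group, muscle transcripts such as Ckm (creatine kinase) stood at 2313 to 5901 FPKM, and the basal keratin Krt5 stood at 342 to 1220 FPKM. Of 10 taste cell markers, 8 stayed under 1 FPKM in all 4 groups, among them Gnat3, the taste G protein, and Trpm5, its cation channel. The other two, which are not limited to taste cells, were Krt8, at 12.6, 21.8, 23.0 and 37.6 FPKM in groups 4, 3, 2 and 1, and the carbonic anhydrase gene Car4, at 3.52, 2.80, 4.58 and 5.73. In such whole tissue, fewer cells of a type and less RNA per cell cannot be told apart.

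Klf4 and Pitx1 led in every group. Klf4 stood at 138 ± 34.6, 142 ± 56.3, 70.4 ± 8.77 and 57.4 ± 4.82 FPKM (± SE) in groups 4, 3, 2 and 1, which was 34.4%, 34.3%, 32.5% and 29.9% of the summed FPKM of the 9 genes. Pitx1 came second, Sox2 was eighth and Gata3 ninth in all 4 groups. Pax9, Klf5, Trp63, Grhl3 and Ovol1 filled the places between. Few neighbours in this order could be told apart by their 95% intervals. Klf4 exceeded Pitx1 beyond its interval in group 2 alone, and Pitx1 exceeded the third gene beyond it in groups 4, 2 and 1. In group 4, no neighbours from Klf5 through Trp63, Pax9 and Grhl3 to Ovol1 were separable. Sox2 stood apart from Gata3 in each group, with log2 ratios of 6.55 ± 0.64, 6.27 ± 0.77, 5.95 ± 0.46 and 5.84 ± 0.40 in groups 4, 3, 2 and 1.

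**Figure D1:**
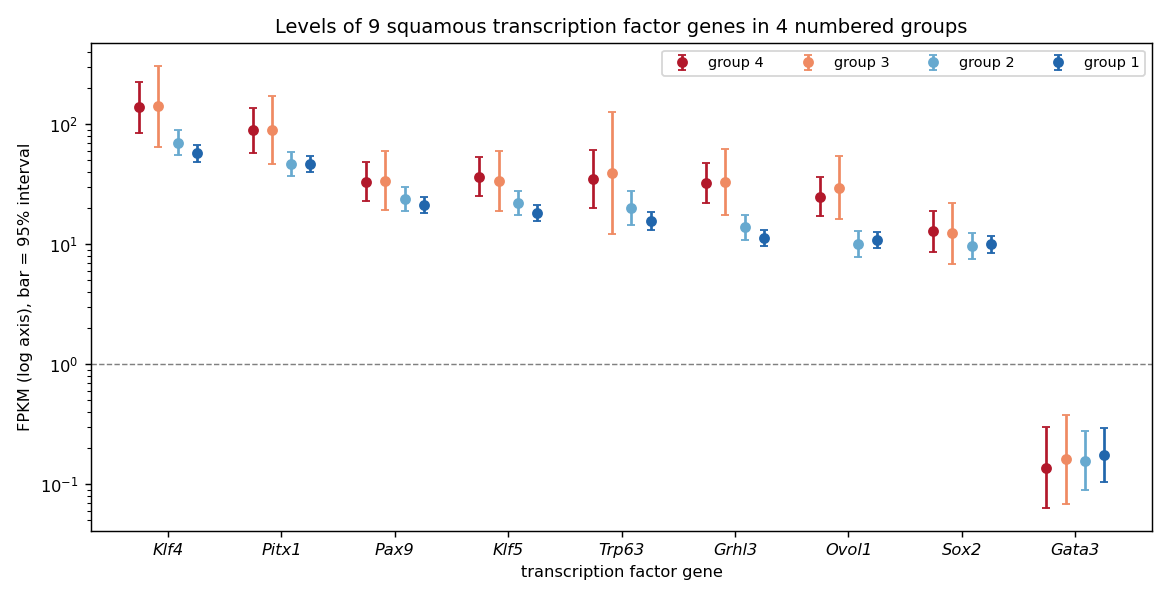
Levels of the 9 transcription factor genes in groups 4, 3, 2 and 1, in FPKM on a log axis; each point is the authors' group value and each bar a 95% interval from the authors' statistics. Klf4 (57.4 to 142 FPKM) and Pitx1 (46.8 to 90.3 FPKM) are the highest, the red and orange points lie above the blue ones for 8 genes, and Gata3 stays under the dashed line at 1 FPKM.

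A gene passed the test, and is called higher or lower, when its q in the authors' deposited table was under 0.05 and its level was at least 1 FPKM on either side. Differences are given on the scale log2(FPKM + 1), ± SE. They understate the change of low genes. Ratios of FPKM are given where a fold is easier to read.

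Grhl3, which encodes a Grainyhead-like factor that drives epidermal barrier formation in mice, was higher in group 4 and in group 3 than in group 1, and higher in group 4 than in group 2. Its levels were 32.2 ± 6.31 and 32.9 ± 10.7 FPKM in groups 4 and 3, against 13.8 ± 1.70 and 11.4 ± 0.883 in groups 2 and 1. Groups 4 and 3 were high and groups 2 and 1 low. The level in group 4 was 2.84 times that in group 1, a log2 difference of 1.43 ± 0.29, with q = 1.09e-04 in the authors' deposited table. Group 3 exceeded group 1 by 1.45 ± 0.47 and group 4 exceeded group 2 by 1.17 ± 0.32, with q = 0.0474 and q = 0.0131 in the authors' deposited table. Group 3 exceeded group 2 by 1.20 ± 0.48, which did not pass (q = 0.198 in the authors' deposited table). The call of group 4 over group 2 ended with 1 variance per gene for all groups and at a q threshold of 0.01, and that of group 3 over group 1 ended at 0.01 and after adjustment within the table.

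Ovol1, a zinc finger repressor that restrains the growth of epidermal progenitors in mice, showed the same split. It stood at 24.8 ± 4.74 and 29.4 ± 9.09 FPKM in groups 4 and 3, against 10 ± 1.25 and 10.9 ± 0.847 in groups 2 and 1. It passed in 3 of the 6 pairs. The log2 differences were 1.12 ± 0.28 for group 4 over group 1, 1.23 ± 0.31 for group 4 over group 2 and 1.47 ± 0.46 for group 3 over group 2, with q = 0.00469, 0.00481 and 0.0415 in the authors' deposited table. Group 3 exceeded group 1 by 1.36 ± 0.44 and missed the threshold, with q = 0.0556 in the authors' deposited table. Among the 9 genes, Ovol1 was the sole one past the test in group 3 against group 2, a call that was lost at q under 0.01 and after adjustment within the table. Its call of group 4 over group 1 ended with 1 variance per gene for all groups.

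Klf4, a Krüppel-like factor needed for the skin barrier in mice, was higher in group 4 than in group 1 by 1.25 ± 0.38, a 2.41-fold ratio (q = 0.0337 in the authors' deposited table). Group 3 exceeded group 1 by 1.29 ± 0.58, with a wider error, and did not pass, with q = 0.309 in the authors' deposited table. Klf5, the related factor of dividing basal cells, stood at 36.6 ± 6.94, 33.8 ± 9.92, 22.0 ± 2.64 and 18.1 ± 1.43 FPKM in groups 4, 3, 2 and 1. It was 2.02 times as high in group 4 as in group 1, a log2 difference of 0.98 ± 0.29 with q = 0.0259 in the authors' deposited table. Both calls ended with 1 variance per gene for all groups and at a q threshold of 0.01. Klf4 exceeded Klf5 throughout, and their ratio of FPKM was 3.78, 4.20, 3.19 and 3.17 in groups 4, 3, 2 and 1.

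Trp63, Pitx1, Pax9 and Sox2 did not pass in any pair. Pitx1, a homeodomain factor known from the hindlimb and the ectoderm of the mouth, stood at 88.9 ± 19.3 and 90.3 ± 30.1 FPKM in groups 4 and 3, against 46.8 ± 5.53 and 46.9 ± 3.68 in groups 2 and 1. Its difference of group 4 from group 1 was 0.91 ± 0.33 (95% interval 0.27 to 1.55), with an unadjusted p = 0.00547 and q = 0.119 in the authors' deposited table. Pax9 stood at 33.3 ± 6.32, 33.9 ± 9.73, 23.9 ± 2.76 and 21.3 ± 1.61 FPKM in groups 4, 3, 2 and 1. Its difference of group 4 from group 1 was 0.62 ± 0.29 (0.06 to 1.18). Of the 8 tested genes Sox2 lay in the narrowest range, at 12.8 ± 2.53, 12.4 ± 3.72, 9.66 ± 1.25 and 10.01 ± 0.837 FPKM. The difference of group 4 from group 1 was 0.32 ± 0.29, and its interval of -0.24 to 0.89 does not show that the groups are alike.

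Trp63 stood at 35.2 ± 9.94, 39.3 ± 23.5, 20.1 ± 3.32 and 15.6 ± 1.41 FPKM in groups 4, 3, 2 and 1. Its group 4 level was 2.26 times that of group 1 (1.13 ± 0.41), close to the 2.28 of Ovol1, but q = 0.127 in the authors' deposited table. The error of Trp63 in group 3 was wide. On the log2 scale it was 0.863, at the 94.5th percentile of 12173 genes (median 0.483), while the other 7 genes above 1 FPKM had between 0.415 and 0.573. In group 1 its error of 0.130 was at the 45.9th percentile. The interval of its difference between groups 3 and 1 reached from -0.39 to 2.95.

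Gata3 was listed at 0.136, 0.160, 0.157 and 0.174 FPKM in groups 4, 3, 2 and 1, and the authors marked it as not tested in all 6 pairs. Most T cell markers were low. Cd3g, a subunit of the T cell receptor complex, stood at 1.79, 1.89, 0.498 and 0.301 FPKM in groups 4, 3, 2 and 1, and so reached 1 FPKM through groups 4 and 3 alone. It was higher in group 4 and in group 3 than in group 1, with q = 0.0178 and 0.0397 in the authors' deposited table. Thy1, a surface protein of T cells and of other cells, was the most abundant of the list, at 11.0, 9.38, 15.3 and 11.5 FPKM, and did not pass. Il1rl1, the receptor of interleukin-33, stood at 0.633, 1.25, 0.743 and 0.429 FPKM and did not pass. A further 8 T cell genes (Cd3e, Cd3d, Cd247, Cd4, Cd8a, Il7r, Lck and Il2rb) stayed under 1 FPKM in each group. Each of these 8 stood higher in both groups 4 and 3 than in both groups 2 and 1. Cd3e, for one, stood at 0.532, 0.581, 0.211 and 0.0757 FPKM in groups 4, 3, 2 and 1. Their levels were under the 1 FPKM that the test required.

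**Figure D2:**
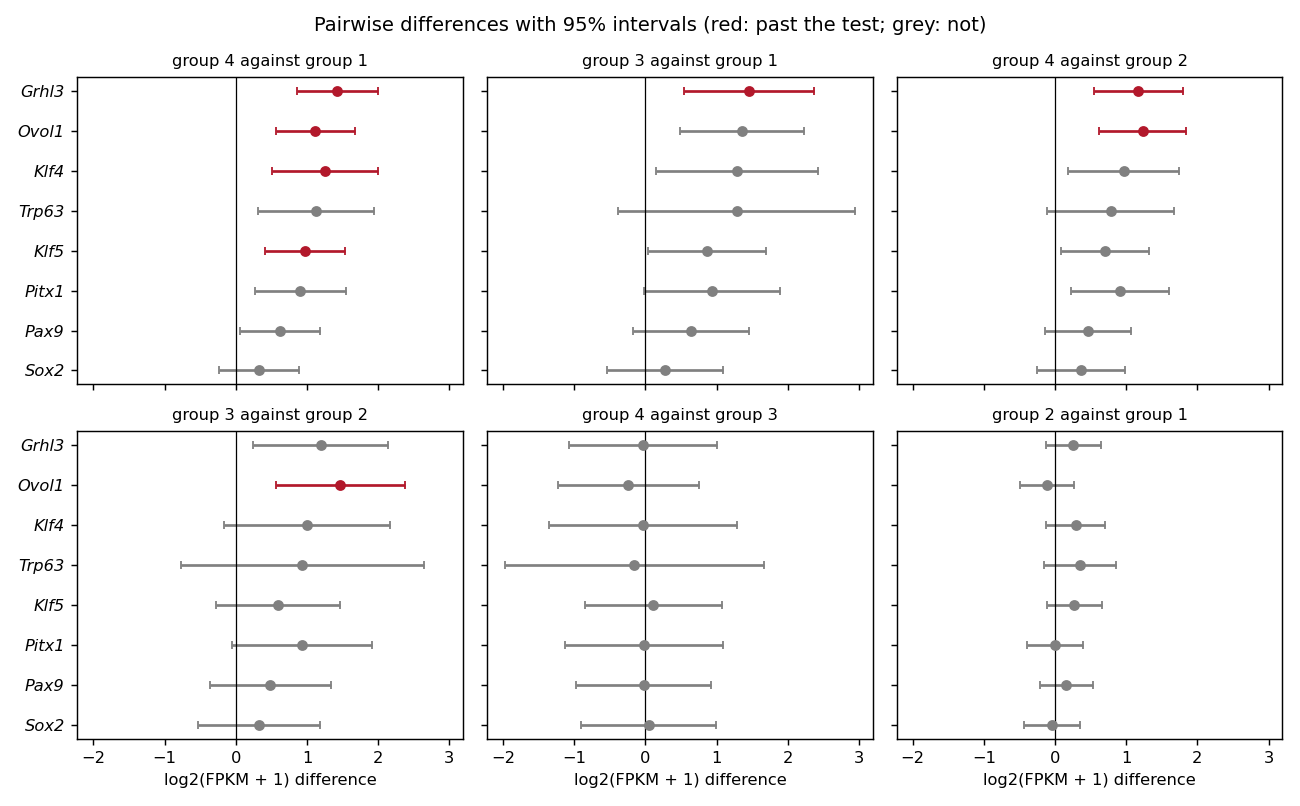
Difference in log2(FPKM + 1), first group minus second, with 95% intervals, for the 8 tested genes in each of the 6 pairs of groups; red marks genes past the test. Red points appear in the 4 pairs that set group 4 or 3 against group 2 or 1 (4 genes in group 4 against group 1), and the points of the remaining pairs lie near 0.

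Across the whole set, the 8 tested genes gave 48 tests, of which 8 passed, all of them higher. In group 4 against group 1, 4 of 8 were higher and 0 lower, where 5% of all 13111 genes tested were higher and 3.91% lower. The median difference of the 8 was 1.05, against -0.08 over all genes tested. This count depended on the settings: it was 1 (Grhl3) with 1 variance per gene for all groups, 2 (Grhl3 and Ovol1) at a q threshold of 0.01 and 6, with Trp63 and Pitx1 added, after adjustment within the table. For group 4 against group 2, 2 of 8 were higher (of all genes, 3.31% were higher and 2.25% lower), with a median of 0.84 against -0.09. For group 3 against group 1, 1 of 8 was higher (of all genes, 2.52% were higher and 0.282% lower), with a median of 1.11 against -0.04, and in group 3 against group 2 it was 1 of 8 (1.61% higher and 0.229% lower), with 0.93 against -0.04. The count in group 4 against group 2 was 1 (Ovol1) at 0.01 and with 1 variance, and the calls of group 3 over group 1 and over group 2 ended at 0.01 and after adjustment within the table. All 8 differences were above 0 in each of these 4 pairs, which share their groups and so are not independent.

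Between groups 4 and 3 and between groups 2 and 1, no member passed. In group 4 against group 3, where 0.17% of all genes were higher and 0.124% lower, the differences lay between -0.24 (Ovol1) and 0.11 (Klf5), with a median of -0.03. In group 2 against group 1, where 0.594% were higher and 0.305% lower, they lay between -0.11 (Ovol1) and 0.35 (Trp63), with a median of 0.21. An unadjusted p under 0.05 in the authors' deposited table was reached by 0 of 8 members in either pair, against 7 of 8 in group 4 against group 1, 5 in group 4 against group 2, 4 in group 3 against group 1 and 2 in group 3 against group 2. Over all genes, 3219 of 13111 reached it in group 4 against group 1 and 2481 of 13124 in group 4 against group 2. The counts were 1580 of 13114 in group 3 against group 1 and 1351 of 13127 in group 3 against group 2. They were 105 of 12918 in group 4 against group 3 and 435 of 12799 in group 2 against group 1. The precision differed: for the 7 genes other than Trp63, the error of a log2 level was 0.274 to 0.361 in group 4 and 0.415 to 0.573 in group 3, against 0.167 to 0.187 in group 2 and 0.109 to 0.121 in group 1. For Grhl3 the interval between groups 4 and 3 ran from -1.07 to 1.01, so a 2-fold difference was within it.

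The 4 treatment groups cross 4-NQO or V.C. with ethanol or none. Of the 3 ways to set a pair of groups against the other pair, 1 is the comparison of 4-NQO with V.C., 1 that of ethanol with none, and 1 the interaction of both, whichever number is which treatment. Which is which is not given. Each contrast was tested per gene as a normal deviate from the group errors, 2-sided, with Benjamini-Hochberg adjustment over 13124 genes. In groups 4 and 3 against groups 2 and 1, 5 of 8 members were higher and 0 lower, where 7.03% of all genes were higher and 8.82% lower. Ovol1 was higher by 1.29 ± 0.27 (adjusted p = 7.89e-05, normal deviate) and Grhl3 by 1.31 ± 0.28 (adjusted p = 1.36e-04). Klf4 was higher by 1.13 ± 0.35, Pitx1 by 0.92 ± 0.30 and Klf5 by 0.79 ± 0.26, with adjusted p = 0.0142, 0.0195 and 0.0245 by the same test. These last calls ended at a threshold of 0.01.

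Trp63 differed by 1.03 ± 0.48 in this contrast, more than Pitx1 or Klf5, but did not pass (adjusted p = 0.136, normal deviate). Pax9 differed by 0.55 ± 0.26 (adjusted p = 0.137) and Sox2 by 0.32 ± 0.26 (adjusted p = 0.459), and neither passed. Of the 8 members, 0 passed in the contrast of groups 4 and 2 against groups 3 and 1, with differences of -0.18 to 0.19, where 0.267% of all genes passed in either direction. In that of groups 4 and 1 against groups 3 and 2, 0 of 8 passed, with -0.25 to 0.05, where 0.206% of all genes passed. In these contrasts 0 members and 166 and 112 of all 13124 genes had an unadjusted p under 0.05 by the normal deviate. Both counts fall below a share of 0.05, the share due if no gene differed. The 0 of 8 therefore does not show that the groups are alike. The intervals of these contrasts were wide: for Grhl3 they were -0.44 to 0.67 and -0.70 to 0.41.

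**Figure D3:**
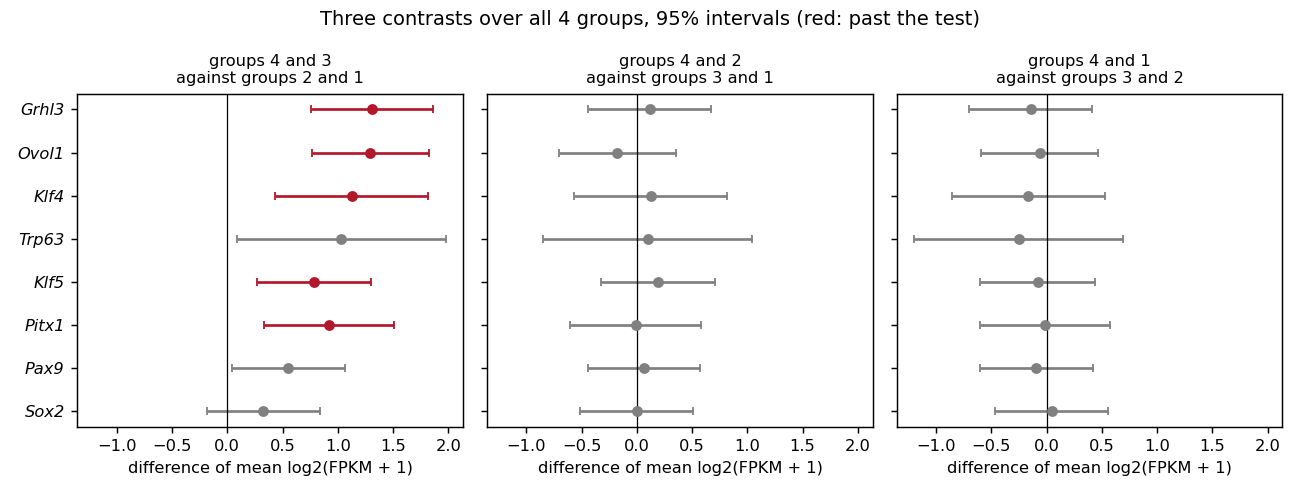
Difference of the mean log2(FPKM + 1) of the first pair of groups minus that of the second, with 95% intervals, for the 8 tested genes in the 3 contrasts; red marks adjusted p under 0.05. In groups 4 and 3 against groups 2 and 1, all points lie above 0 and 5 are red (0.79 to 1.31), and in the other contrasts every interval spans 0.

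Summed epithelial markers also had larger totals in groups 4 and 3, which were not tested. The 7 measured genes of a list of epithelial content markers summed to 2590 FPKM in group 4 and 2995 in group 3, against 1322 in group 2 and 1170 in group 1. The largest parts were Krt5 and Perp, whose differences of group 4 from group 1 had wide errors (1.68 ± 0.85 and 1.17 ± 0.65). Cdh1, the adhesion protein E-cadherin, stood at 41.3, 42.2, 21.1 and 21.9 FPKM and Krt5 at 1100.3, 1220, 473 and 342 FPKM in groups 4, 3, 2 and 1. The list was not uniform: Krt15, a basal keratin, stood at 285, 289, 238 and 267 FPKM, and Epcam, an adhesion protein of simple and glandular epithelium, at 23.5, 25.2, 34.0 and 43.8. Of the 7, 0 passed in either direction in group 4 against group 1, with a median of 1.17. The contrast of groups 4 and 3 against groups 2 and 1 had 2 of 7 higher, Cdh1 (0.93 ± 0.28) and Jup (1.22 ± 0.44), with a median of 1.22. Its shares over all genes were 7.03% higher and 8.82% lower. The keratins Krt14, Krt13 and Krt4 were over the authors' limit on reads in part of the tables and were left out.

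Summed skeletal muscle markers had smaller totals in groups 4 and 3, which were not tested. The 8 measured muscle markers summed to 10369 FPKM in group 4 and 8594 in group 3, against 18055 in group 2 and 19505 in group 1. The largest parts were Tnnt3, Ckm and Mylpf. Their differences of group 4 from group 1 had wide errors (-0.96 ± 2.24, -1.05 ± 1.29 and -0.67 ± 0.73). Pvalb, a calcium buffer of fast fibres, was lower in group 4 than in group 1 (-2.16 ± 0.41), and the other 7 did not pass, with a median of -0.86 over the list. Over groups 4 and 3 against groups 2 and 1, 3 of 8 were lower (Pvalb, Actn3 and Myh2) and 0 higher. The shares over all genes were 8.82% lower and 7.03% higher. The part of a shift in tissue makeup in the levels of the 9 genes was not tested.

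Set against Cdh1, the factors had unlike profiles. The FPKM of Pitx1 was 2.15, 2.14, 2.22 and 2.15 times that of Cdh1 in groups 4, 3, 2 and 1. The ratio of Ovol1 to Cdh1 was 0.601 and 0.698 in groups 4 and 3, against 0.475 and 0.499 in groups 2 and 1, and that of Grhl3 was 0.780 and 0.780, against 0.655 and 0.520. For Sox2 it was 0.309 and 0.293 in groups 4 and 3, against 0.459 and 0.458 in groups 2 and 1. The ratio of Klf4 was 3.35 and 3.36 in groups 4 and 3, against 3.34 and 2.63 in groups 2 and 1. That of Klf5 was 0.885 and 0.801, against 1.05 and 0.828, and that of Trp63 was 0.851 and 0.931, against 0.953 and 0.712. For Pax9 it was 0.805 and 0.803, against 1.13 and 0.974. Set against Krt5, none of these was raised in both groups 4 and 3 over both groups 2 and 1. The ratio of Ovol1 to Krt5 was 0.0226 and 0.0241 in groups 4 and 3, against 0.0212 and 0.0318 in groups 2 and 1, and that of Grhl3 was 0.0293 and 0.0270, against 0.0292 and 0.0332. For Pitx1 it was 0.0808 and 0.0740, against 0.0991 and 0.137, and for Sox2 0.0116 and 0.0101, against 0.0204 and 0.0292. Krt5 carried a wide error (1.68 ± 0.85 for group 4 over group 1), and these ratios were not tested.

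Each factor also has paralogs, close relatives by descent, which were collected by symbol. In the Grainyhead-like family, Grhl1 stood at 27.4, 29.4, 13.0 and 11.6 FPKM in groups 4, 3, 2 and 1, near the levels of Grhl3, and was higher in group 4 than in group 1 (1.17 ± 0.35, q = 0.0277 in the authors' deposited table). Grhl2 stood at 6.33, 7.58, 3.69 and 3.52 FPKM and did not pass in that pair (0.70 ± 0.26). All 3 Grainyhead-like genes were higher in the contrast of groups 4 and 3 against groups 2 and 1, Grhl1 by 1.14 ± 0.32 and Grhl2 by 0.78 ± 0.24. Of all genes in that contrast, 7.03% were higher and 8.82% lower. Ovol2, the relative of Ovol1, was low at 1.72, 1.99, 1.52 and 2.25 FPKM and did not pass (-0.0026 ± 0.35 in that contrast). Ovol1 made up 93.5%, 93.7%, 86.8% and 82.9% of the FPKM of the pair in groups 4, 3, 2 and 1.

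The Krüppel-like family had 17 rows, of which 14 reached 1 FPKM. Klf4 held 43.7%, 45.1%, 27.9% and 27.6% of the family's FPKM in groups 4, 3, 2 and 1. Calls went in both directions. Klf3, a repressor of the family, was higher in group 4 than in group 1 (0.97 ± 0.28, at 22.4 FPKM in group 4 and 11.0 in group 1). In the contrast of groups 4 and 3 against groups 2 and 1, Klf3, Klf4 and Klf5 were higher and Klf15, a metabolic regulator known from muscle and liver, was lower by 0.92 ± 0.28, at 12.7 and 11.5 FPKM in groups 4 and 3 against 23.7 and 24.1 in groups 2 and 1. The remaining 10 tested did not pass in that contrast, where 7.03% of all genes were higher and 8.82% lower.

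In the paired-box family, Pax1, the nearest relative of Pax9, stood at 1.89, 14.08, 16.4 and 24.7 FPKM in groups 4, 3, 2 and 1. It was lower in group 4 than in group 1 (-3.15 ± 0.38), group 2 (-2.59 ± 0.40) and group 3 (-2.38 ± 0.75), with q = 2.42e-08, 2.01e-05 and 0.0422 in the authors' deposited table. Pax9 did not pass in any of these pairs. The remaining 7 paired-box genes stayed under 1 FPKM.

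Among other relatives, the tumour suppressor Trp53 stood at 19.9, 19.6, 14.8 and 13.4 FPKM in groups 4, 3, 2 and 1 and did not pass in any pair. Trp73 stayed between 0.713 and 1.34 FPKM. Of 12 Sox genes tested, 1 passed in group 4 against group 1: Sox10, a neural crest and glial factor, was lower (-1.26 ± 0.30). Over all genes tested in that pair, 5% were higher and 3.91% lower. Sox15, known from stratified epithelium, stood at 17.5, 19.4, 8.06 and 8.19 FPKM, above Sox2 in groups 4 and 3, and did not pass (1.09 ± 0.42 in the contrast of groups 4 and 3 against groups 2 and 1, adjusted p = 0.0592 by the normal deviate). Gata2, known from blood and endothelial cells, was the sole GATA gene to reach 1 FPKM, at 2.42, 1.69, 2.97 and 2.65.

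**Figure D4:**
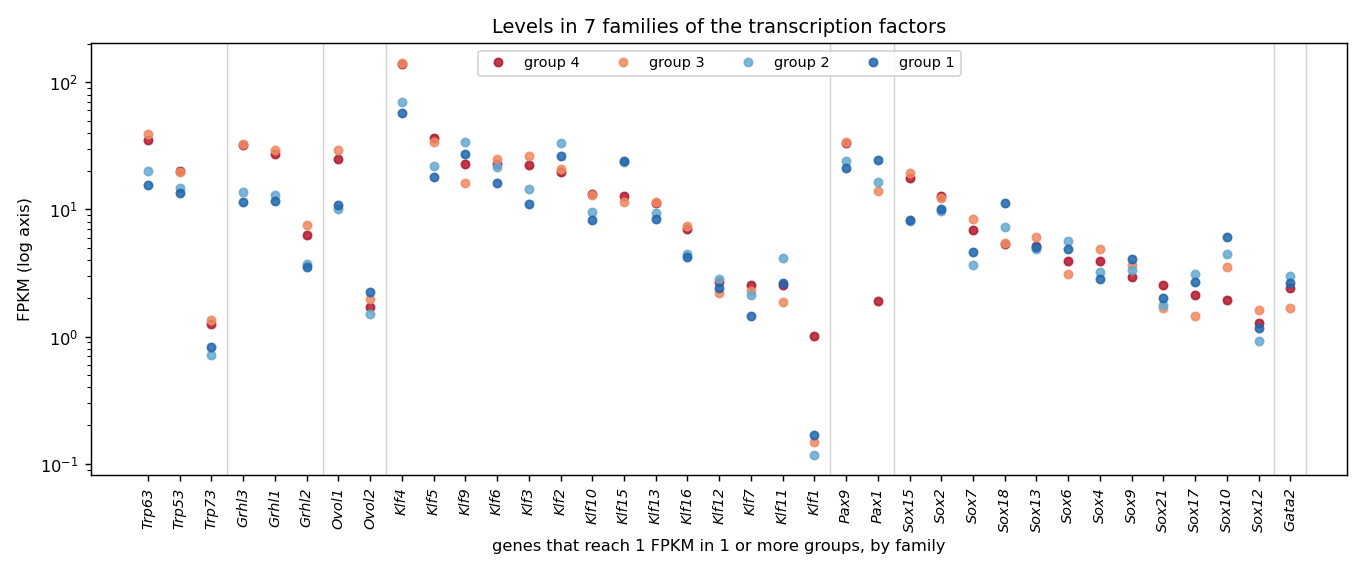
FPKM (log axis) of the genes of 7 families (p53, Grainyhead-like, Ovol, Krüppel-like, paired-box, Sox and GATA) that reached 1 FPKM in 1 or more groups, with groups 4 and 3 in red and orange and groups 2 and 1 in blue. The red and orange points are above the blue for the 3 Grainyhead-like genes, the Krüppel-like and Sox genes go both ways, and Pax1 has its lowest point (1.89 FPKM) in group 4.

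Of 28 other squamous transcription factor genes tested in group 4 against group 1, 8 were higher and 0 lower, with a median of 0.73. Over all genes tested in that pair, 5% were higher and 3.91% lower. Among the 8 were Zfp750 (1.09 ± 0.34), whose human counterpart is a p63 target, and Foxn1 (1.09 ± 0.32), known from hair and thymus epithelium. Bnc1 (1.38 FPKM in group 4, 0.312 in group 1) and Pou3f1 (2.08 and 0.553) entered the count through group 4 alone. The contrast of groups 4 and 3 against groups 2 and 1 had 11 of 29 higher and 0 lower. Its shares over all genes were 7.03% higher and 8.82% lower. Bnc1 and Pou3f1, among the 11, reached 1 FPKM in groups 4 and 3 alone. Elf5, an ETS factor known from the mammary gland, stood on the low side of that contrast (-0.63 ± 0.31) and did not pass, at 5.09 and 6.40 FPKM in groups 4 and 3 against 8.19 and 10.7 in groups 2 and 1.

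Genes known to be bound or driven by p63 in basal keratinocytes had 9 of 20 higher and 0 lower in group 4 against group 1, with a median of 1.22. Over all genes tested there, 5% were higher and 3.91% lower. Dsg3, a desmosomal cadherin, stood at 37.0, 54.6, 7.95 and 5.56 FPKM in groups 4, 3, 2 and 1 and was higher by 2.54 ± 0.32. Lama3, a chain of the basement membrane protein laminin-332, was higher by 1.44 ± 0.30, and the P-cadherin gene Cdh3 by 1.70 ± 0.29. Trp63 itself did not pass in that pair, as given above. Over groups 4 and 3 against groups 2 and 1, 13 of the 20 were higher and 1, Satb1, a chromatin organiser, was lower (-0.82 ± 0.25). The shares over all genes in that contrast were 7.03% higher and 8.82% lower.

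Barrier genes had 9 of 20 higher and 0 lower in group 4 against group 1, with a median of 1.01. Over all genes tested there, 5% were higher and 3.91% lower. Tgm1, the transglutaminase that GRHL3 is known to regulate in mouse epidermis, stood at 124, 114, 40.7 and 35.4 FPKM in groups 4, 3, 2 and 1 (1.78 ± 0.39). The suprabasal keratin gene Krt1 stood at 62.2, 66.7, 1.99 and 2.05 FPKM (4.37 ± 0.32), and Sprr1b and Sprr1a, which encode cross-linked envelope proteins, were higher by 3.67 ± 0.37 and 2.04 ± 0.44. Lor, which encodes loricrin, a main envelope protein of skin, stood at 1274, 1224, 1227 and 1077 FPKM and did not pass in any pair. Alongside, 0 of 9 mesenchymal genes passed in group 4 against group 1 (median -0.44). In the contrast of groups 4 and 3 against groups 2 and 1, Zeb1, a repressor of Cdh1, was lower (-0.73 ± 0.23), as were Vim and Fn1, and Snai2 was higher (0.94 ± 0.29), at 7.37 and 12.2 FPKM in groups 4 and 3 against 4.17 and 4.81 in groups 2 and 1.

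**Figure D5:**
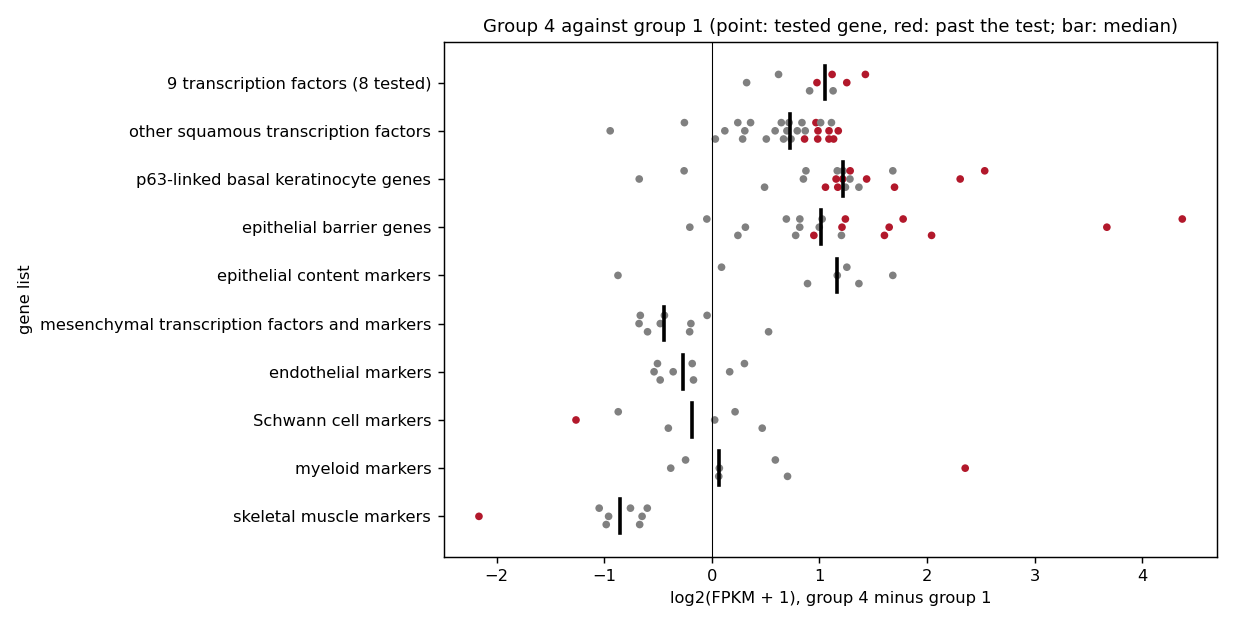
Difference in log2(FPKM + 1), group 4 minus group 1, for each tested gene of the 9 factors and of 9 gene lists, with the median of each list as a black bar and genes past the test in red. The factors (median 1.05), the other squamous factors (0.73), the p63-linked genes (1.22) and the barrier genes (1.01) lie mostly right of 0, and the muscle markers (median -0.86) lie left of it.

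Markers of further cell types in group 4 against group 1 gave 1 of 7 myeloid genes higher (Mpo, myeloperoxidase of neutrophil granules, which reached 1 FPKM in group 4 alone), 1 of 2 T cell genes higher (Cd3g) and 0 of 8 endothelial genes past the test (median -0.27). In that pair Sox10 was the 1 lower gene of 6 Schwann cell markers, Krt8, a keratin of simple and taste epithelium, was the 1 lower gene of 2 taste cell markers, and 5 of 8 salivary gland markers were lower and 1 higher. Of all genes tested in the pair, 5% were higher and 3.91% lower. Over groups 4 and 3 against groups 2 and 1, 3 of 8 endothelial genes were lower (Cdh5, Kdr and Tie1, median -0.56), as were 1 of 6 Schwann cell markers and 4 of 8 salivary markers. Higher in that contrast were 2 of 8 salivary markers (Pip and Lpo), 1 of 7 myeloid genes (Csf3r) and 1 of 3 T cell genes (Cd3g). Pip, Lpo and Cd3g reached 1 FPKM in groups 4 and 3 alone, and Csf3r in group 3 alone. Of the 2 taste cell markers, 0 passed in that contrast. Its shares over all genes were 7.03% higher and 8.82% lower. Salivary genes also varied within the other pairs: the secreted protein gene Dcpp1 stood at 11.9, 108, 360 and 787 FPKM in groups 4, 3, 2 and 1. The part of these cell types in the levels of the 9 genes was not tested.

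The genes nearest to each factor in profile over the 4 groups were found by the root mean square difference of log2(FPKM + 1), each gene centred on its own mean, among 13384 genes. Over 4 group values this is a description. Nearest to Pitx1 was Cdh1, at 0.0177, followed by Spag5 (0.0205) and Sema3f (0.0240). Klf4 was nearest to Adam8 (0.0215), a metalloprotease, Col17a1 (0.0225), the hemidesmosomal collagen, and Arrdc4 (0.0230), and Trp63 to the AP-1 gene Junb (0.0318), the kinetochore gene Nuf2 (0.0376) and Zfp750 (0.0376). Grhl3 was nearest to the kinesin gene Kif22 (0.0263), Prrg4 (0.0319) and the amino acid transporter gene Slc7a8 (0.0341), and Ovol1 to the protease gene Tmprss11e (0.0234), the replication gene Dbf4 (0.0381) and the integrin gene Itga3 (0.0400). Klf5 was nearest to Robo1 (0.0246), Fam57a (0.0260) and Tmem43 (0.0287), and Pax9 to 6430706D22Rik (0.0103), Tmtc3 (0.0114) and Sgpl1 (0.0126). Sox2 was nearest to Haghl (0.00828), Adss (0.00981) and the ligand gene Wnt4 (0.0102), and the low Gata3 to Zmym5 (0.00391), Pisd (0.00460) and Xpc (0.00800), whose profiles are flat. Among the factors themselves the closest pair was Klf4 and Trp63, at 0.0669. Adding 1 to FPKM shrinks the differences of low genes, so a near match need not share the fold change of the factor. Kif22, Nuf2, Spag5 and Tmprss11e were among such low genes. They stood at 3.83, 2.35, 1.78 and 1.96 FPKM in group 4, and at 0.735, 0.454, 0.426 and 0.352 in group 1.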

How the data were processed

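The study sequenced poly-A RNA of 12 tongue samples in 4 groups of 3. Per the labels, libraries were made with Illumina TruSeq reagents, and the series design text gives the mm9 genome and Cufflinks. GSNAP 2011.11.17 and edgeR stand in the submitters' processing notes with no role given. The deposited levels are FPKM, 1 per gene and numbered group in 6 tables, per the file headers. The deposited score is the authors' test statistic. Each deposited p-value and q-value came from the authors and was not recomputed. Values per sample were not analysed here, so the depth is unknown, no replicate could be compared, and the errors measure only what the authors' statistic holds.

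Differences are log2(FPKM + 1). The SE of a log2 ratio of FPKM is the ratio divided by the authors' statistic, in absolute size. From the squared SEs of the 6 pairs a variance was solved for each of the 4 groups (largest misfit among the 9 genes 0.000594). For a difference in log2(FPKM + 1), the SE of each group was multiplied by FPKM/(FPKM + 1). The squares were then added. Intervals are 95%, from the normal distribution. The test required the authors' status OK, q under 0.05 and 1 FPKM in 1 or both groups. The 3 contrasts of group pairs were added as normal deviates. The script of the contrast test was first run on simulated data with known changes. The FPKM columns were taken once per group. The 23 genes over the authors' read limit in 1 or more pairs were left out of all list sums, list counts, contrasts and profile comparisons. Counts over all genes in a pair left them out only where that pair was over the limit.

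The members, the 12 lists (156 genes, of which 150 were found) and the tests were chosen with earlier results of these data known. The 8 paralog families and the ratios to Cdh1 and Krt5 were added after the values were seen. Named were all 9 genes, for each the 3 genes of most similar profile, and up to 4 genes per list by size of change among those past the test. Some genes that this rule names are not reported here. Krt5, Krt15, Epcam, Elf5, Lor, Satb1, Jup, Vim, Fn1, Zeb1, Snai2, Ckm, Sox15, Thy1, Il1rl1, Car4, the calls named in the contrasts and the paralogs were named after their values were seen. So were Perp, Tnnt3, Mylpf and Pou3f1. Alternatives were another q threshold, FPKM filter, fold minimum, adjustment, pseudocount, centring and variance. Promoters came from the RefSeq table of GRCm38.p6 and were matched by symbol for 5 of the 9 genes. Python 3.11.15, numpy 2.4.6, pandas 2.3.3, scipy 1.17.1 and matplotlib 3.10.9 were used.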

Additional observations from a re-analysis of the deposited data

How the results depend on the processing

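No paired analysis was possible because the tables hold 1 value per gene and group and none per sample, and for the same reason no replicate could be left out. Of 162 member differences under another pseudocount or centring, 154 moved by less than their SE, 8 moved by more, all of them of Gata3, and 0 of the differences past the test changed sign. The sign changed in 9, which were at most 0.0475 in absolute size and not past the test. Centring used the median log2 ratio over genes at or above 5 FPKM in both groups, which was -0.16 for group 4 against group 1, -0.14 for group 4 against group 2, -0.10 for group 3 against group 1, and nearer 0 in the other pairs.

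Counts of members past the test moved as follows. At a threshold of 0.01 they fell to 2 (Grhl3 and Ovol1) of a reported 4 in group 4 against group 1, 1 (Ovol1) of 2 in group 4 against group 2, 0 of 1 in group 3 against group 1, 0 of 1 in group 3 against group 2 and 2 (Grhl3 and Ovol1) of 5 in the contrast of groups 4 and 3 against groups 2 and 1. With Benjamini-Hochberg adjustment within a table, group 3 against group 1 and group 3 against group 2 gave 0 each, and group 4 against group 1 gave 6, with Trp63 and Pitx1 added. After centring, group 3 against group 1 gave 2, with Ovol1 added, and group 4 against group 1 gave 5, with Pitx1 added. With 1 variance per gene for all groups, group 4 against group 1 gave 1 (Grhl3), group 4 against group 2 gave 1 (Ovol1) and group 3 against group 1 gave 2 (Grhl3 and Ovol1). The counts were the same without an FPKM filter, at 5 FPKM and with a 2-fold minimum, and the 5 calls of that contrast were the same at a pseudocount of 0.1, at 5 FPKM, after centring and with 1 variance. The causes were not tested.

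Counts over all genes also moved. Of all genes, 1167 passed in group 4 against group 1, against 653 at 0.01 and 470 with 1 variance per gene. For group 4 against group 2 these were 729, 369 and 342. In group 3 against group 1, 367 passed, against 217 at 0.01 and 243 at 5 FPKM. In group 3 against group 2, 241 passed, against 144 at 0.01 and 388 with 1 variance. In group 2 against group 1, 115 passed, against 65 at 0.01, 70 with a 2-fold minimum, 72 adjusted within the table and 22 with 1 variance. For group 4 against group 3, 38 passed, against 24 at 5 FPKM. In the contrast of groups 4 and 3 against groups 2 and 1, 2080 passed, against 1139 at 0.01. In that of groups 4 and 2 against groups 3 and 1, 35 passed, against 20 with 1 variance, and in that of groups 4 and 1 against groups 3 and 2, 27 passed, against 18 at 5 FPKM.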
